A study of Homo sapiens with 6 samples.

Results

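Untreated PC9 cells with much mitotic messenger RNA were set against untreated PC9 cells with little. PC9 is an established human lung adenocarcinoma line that carries an activating EGFR mutation and divides quickly without drug. Cells were chosen by a panel of 12 genes of G2 phase and mitosis: TOP2A, MKI67, CENPF, UBE2C, CDK1, BIRC5, TPX2, NUSAP1, CCNB1, HMMR, ANLN and PTTG1. A cell was called high where the panel made up at least 0.5% of its unique molecular identifiers (UMIs, each a captured RNA molecule) and low where it made up less than 0.1%. Cells needed 1000 UMIs or more, with no more than 20% of them mitochondrial. Of the 822 untreated cells that met this, 247 were high, 256 were low and 319 lay between. The whole series held 1769 cells that met it.

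Messenger RNA of single cells was counted by Drop-seq, a droplet method that captures polyadenylated RNA on barcoded beads, in 6 libraries of PC9 with 1 library per condition. The untreated library had neither virus nor erlotinib, an inhibitor of the EGFR kinase. The scrambled library came from cells given a lentivirus with a scrambled shRNA and GFP, also without drug. The other 4 were given 2 µM erlotinib for 1 day. Of these, the CPI-455 library (an inhibitor of KDM5 histone demethylases, 6.25 µM for 4 days) and the library with lentiviral KDM5A and KDM5B shRNA (drug from the fifth day after transduction) are used below, because they held 5 or more cells of each class. Since the untreated cells are 1 library, values between its classes are given with intervals that cover counting error only, and no test was made between them.

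A dividing cell copies its DNA in S phase, prepares for division in G2 and separates its chromosomes in M phase. Many genes of spindle, kinetochore and chromosome condensation are held silent after division and switched on together late in the cycle. Their promoters often carry a short element called the cell cycle homology region, bound by the DREAM complex in resting and early cells and by B-MYB and FOXM1 with the same core late in the cycle, frequently beside CCAAT boxes bound by NF-Y.

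High cells held a median of 2308 UMIs and 1413 genes per cell, and low cells 1838 UMIs and 1181.5 genes. In cells thinned to 1000 UMIs the medians were 752 genes in high cells and 733.5 genes in low cells. Together the 247 high cells gave 1233575 UMIs and the 256 low cells 924800. The median mitochondrial share was 3.52% in high cells and 3.96% in low cells. Panel shares ran from 0.501% to 2.48% in high cells with a median of 0.868%, whereas the median was 0.0143% in low cells and 122 of them had no panel UMI. The limits cut through a continuous range of cells, with 22 cells at 0.5% to 0.55%, 32 just below at 0.45% to 0.5%, 55 at 0.1% to 0.15% and 87 at 0.05% to 0.1%. No kept barcode of another library occurred among the kept untreated barcodes.

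**Figure D1:**
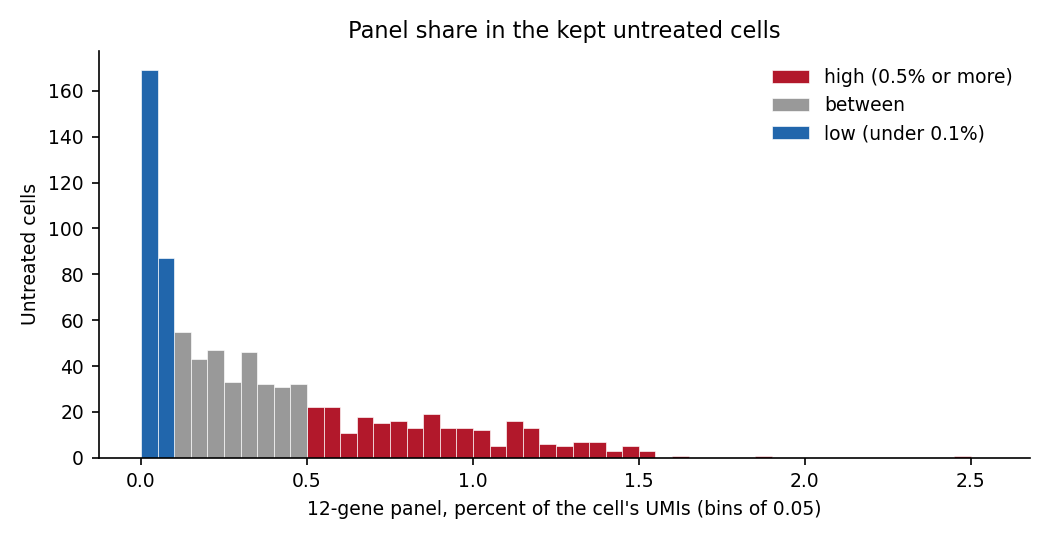
Number of kept untreated cells (vertical axis) by the share of the 12-gene panel in the cell's UMIs (horizontal axis, percent, bins of 0.05), coloured by class. Cells form a continuous slope from 0% upward with no gap at 0.1% or at 0.5%, and the highest cell stands at 2.48%.

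Genes of G2 and mitosis outside the panel followed the label. Over 8 such markers the summed level was 2678 CPM (UMIs scaled to the same total in each class) in high cells and 218 CPM in low cells. Both classes carried epithelial markers at similar levels, 7475 CPM in high cells and 8672 CPM in low cells over 6 genes that include EPCAM and KRT18. Markers of other cell types were low beside these, and CD68 was the only one clearly above the floor: COL1A1, a fibroblast collagen and the only 1 of 5 fibroblast markers with a row, stood at 4.05 CPM in high cells and 3.24 CPM in low cells, 2 leukocyte genes (CD68 almost alone) summed to 26.8 CPM in high cells and 41.1 CPM in low cells, and 3 endothelial genes summed to 0.811 CPM in high cells and 5.41 CPM in low cells. Each panel gene was also read in cells classed by the other 11 genes alone. TOP2A, the topoisomerase that untangles chromosomes, then stood at 1681 CPM in high cells and 58.1 CPM in low cells, and UBE2C, a ubiquitin-conjugating enzyme of the anaphase-promoting complex, at 680 CPM in high cells and 15.8 CPM in low cells. PTTG1, which encodes securin, differed least, with 694 CPM in high cells and 173 CPM in low cells. The ratios of the 12 genes read this way ran from 4.02 to 42.9, against 8.21 to 88.1 where each gene also took part in the choice of cells.

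Outside the panel 4164 genes reached 50 CPM in at least one class. Of these, 219 (5.26%) were 2-fold or more higher in high cells and 63 (1.51%) were 2-fold or more lower, and the median log2 ratio over all 4164 was -0.02. Genes that reached the minimum through 1 class alone had to differ, so these shares describe the filter as well. Of the 219 genes that were higher, 108 belong to 1 of 36 gene lists and 111 to none, and of the 63 that were lower, 13 belong to a list and 50 to none. Depth differed between the classes, and with cells thinned to 1000 UMIs 351 genes were higher and 233 lower by 2-fold or more. Thinning also shrinks the class totals, so that 50 CPM is then fewer UMIs and counting error weighs more in these numbers.

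**Figure D2:**
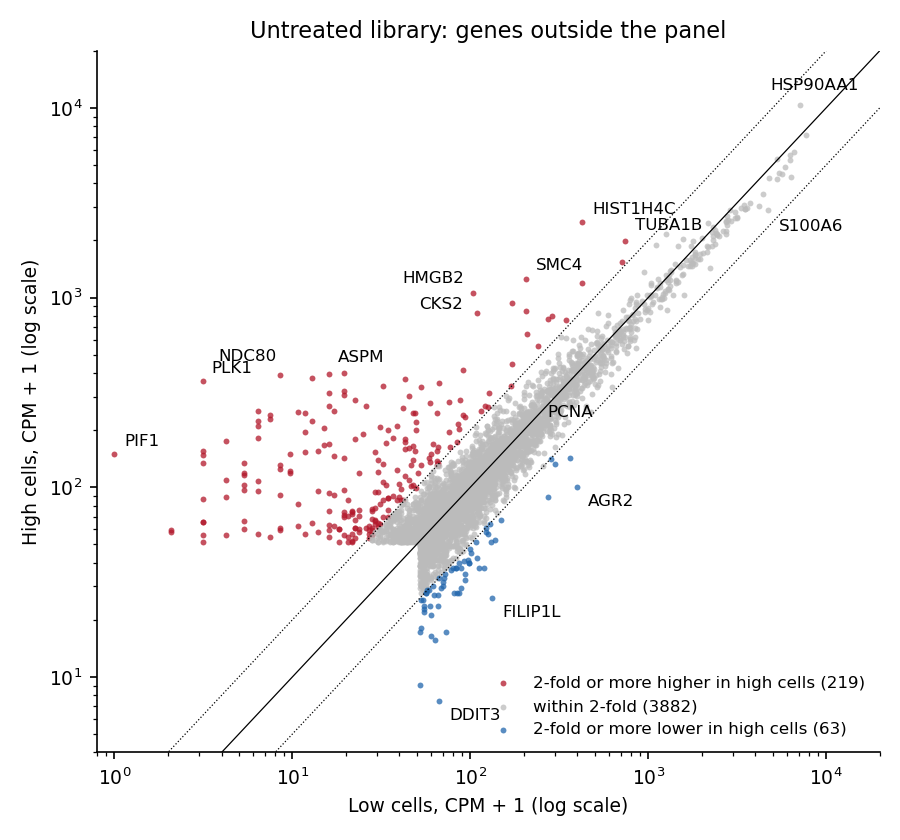
Level of each of the 4164 compared genes in low cells (horizontal axis) and in high cells (vertical axis) of the untreated library, both as CPM + 1 on log scales. The solid line marks equal levels and the dotted lines 2-fold; 219 genes lie above the upper dotted line, many of them near the floor in low cells, and 63 lie below the lower one.

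The 20 highest genes were picked by the lower bound of the ratio, a choice that favours genes with few UMIs in low cells. Among them, mitotic regulators were nearly absent from low cells. PLK1, the polo-like kinase that drives mitotic entry and centrosome maturation, had 446 UMIs (362 CPM) in high cells and 2 UMIs (2.16 CPM) in low cells, a ratio of 167 (95% interval 46.0 to 1385). PIF1, a DNA helicase, had 183 UMIs in 91 high cells and none in low cells, which against a floor of 3 counts is at least 45.7-fold higher. NDC80, the kinetochore protein that grips microtubules, stood at 388 CPM in high cells and 7.57 CPM in low cells. KIF14, a kinesin of the midbody, stood at 250 CPM in high cells and 5.41 CPM in low cells. The other 16 of the 20 highest were FAM83D, CASC5, NEK2, DEPDC1, CENPE, KIF4A, KIF20A, AURKB, GTSE1, ASPM, CCNF, DLGAP5, ARHGAP11A, AURKA, HJURP and NUF2, with ratios between 20.6 (AURKA) and 71.6 (FAM83D).

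The starts of these genes are shown because members that move together can share letters. Promoters came from RefSeq on GRCh38.p14, as 250 bases before to 50 after the first listed start, and were searched on both strands for TTTGAA, the core of the cell cycle homology region, and for CCAAT. Of the 20 highest genes 17 had a promoter in the table, and 12 of these (70.6%) held TTTGAA, against 2 of 16 (12.5%) among the 20 lowest genes and 15.4% of 27305 promoters in all. CCAAT occurred in 13 of the 17 (76.5%), in 10 of the 16 (62.5%) and in 35.7% of all promoters. Both motifs together occurred in 10 of the 17 (58.8%), in 0 of the 16 and in 6.08% of all promoters. Of the 9 panel genes with a promoter, 7 (77.8%) held TTTGAA and 6 (66.7%) held both. The first 4 of the 20 highest genes with TTTGAA close to the start are printed below from 60 bases before the start through 30 bases from it, followed by DDIT3 and MCM6 from the 20 lowest, whose promoters hold CCAAT but no TTTGAA. Capitals mark TTTGAA or CCAAT on either strand, so that TTCAAA and ATTGG are the same motifs read from the other strand, and the motifs can overlap where TTTGAA runs into ATTGG. The stretches lie at chr16:23678829-23678918 (plus strand) for PLK1, chr15:64825618-64825707 (minus strand) for PIF1, chr18:2571497-2571586 (plus strand) for NDC80, chr1:200620722-200620811 (minus strand) for KIF14, chr12:57520485-57520574 (minus strand) for DDIT3 and chr2:135876414-135876503 (minus strand) for MCM6.
PLK1: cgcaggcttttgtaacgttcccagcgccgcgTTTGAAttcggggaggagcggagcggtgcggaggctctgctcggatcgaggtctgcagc
PIF1: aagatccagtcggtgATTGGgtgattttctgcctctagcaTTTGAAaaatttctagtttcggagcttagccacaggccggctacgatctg
NDC80: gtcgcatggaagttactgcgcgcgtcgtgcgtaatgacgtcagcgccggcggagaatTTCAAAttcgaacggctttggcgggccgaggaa
KIF14: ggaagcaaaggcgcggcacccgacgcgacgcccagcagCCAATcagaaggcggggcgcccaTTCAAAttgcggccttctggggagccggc
DDIT3: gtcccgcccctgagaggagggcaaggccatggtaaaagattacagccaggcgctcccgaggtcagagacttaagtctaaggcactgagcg
MCM6: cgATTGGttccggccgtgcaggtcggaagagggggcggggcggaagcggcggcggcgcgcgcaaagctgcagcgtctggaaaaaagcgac
In PLK1 the motif begins 29 bases before the start, in PIF1 20 bases before, in NDC80 3 bases before and in KIF14 1 base after it. A match is a run of letters in this window and not a measured binding site.

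Kinases and checkpoint proteins, which time mitotic entry and hold cells until chromosomes are attached, were all higher. Of 12 members compared, 12 were 2-fold or more higher, with a median log2 ratio of 4.17, against 5.26% of all compared genes. Members that reached 50 CPM in high cells alone, such as AURKA, AURKB and TTK, had to differ. The same limit holds for the counts in the lists below. AURKA, the centrosomal Aurora kinase, stood at 312 CPM in high cells and 15.1 CPM in low cells. AURKB, the Aurora kinase of the chromosomal passenger complex, stood at 210 CPM in high cells and 5.41 CPM in low cells, and TTK, the kinase that starts the spindle checkpoint, at 205 CPM in high cells and 14.1 CPM in low cells. BUB3, a checkpoint protein, differed less, with 169 CPM in high cells and 60.6 CPM in low cells.

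Of 14 genes of cyclins and of the proteolysis that ends mitosis compared, 10 were 2-fold or more higher and none was lower. Over all compared genes the shares were 5.26% and 1.51%. CKS2, a cyclin-dependent kinase subunit, was the most abundant, with 824 CPM in high cells and 108 CPM in low cells (ratio 7.62, 95% interval 6.20 to 9.45). CDC20, the activator of the anaphase-promoting complex, stood at 287 CPM in high cells and 21.6 CPM in low cells, and CCNA2, cyclin A2 of S and G2 phase, at 268 CPM in high cells and 15.1 CPM in low cells. ANAPC11, a core subunit of that complex, was within 2-fold, with 355 CPM in high cells and 278 CPM in low cells.

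Nearly all spindle and cytokinesis genes compared were higher, where 5.26% of all compared genes were 2-fold or more higher. Of 26 kinesins and spindle proteins compared, 25 were 2-fold or more higher, and only HN1, with 616 CPM in high cells and 324 CPM in low cells, stayed within. ARL6IP1, a membrane-shaping protein of the endoplasmic reticulum that was placed in this list, had 936 CPM in high cells and 171 CPM in low cells. ASPM, which focuses spindle poles, had 394 CPM in high cells and 15.1 CPM in low cells, and DLGAP5, a protein of spindle microtubules near chromosomes, had 397 CPM in high cells and 18.4 CPM in low cells. In cytokinesis 9 of 11 members were 2-fold or more higher, among them PRC1, the bundler of the central spindle, with 340 CPM in high cells and 31.4 CPM in low cells. RHOA, the small GTPase of the contractile ring, which also serves cells outside division, had 407 CPM in high cells and 413 CPM in low cells, and SEPT7, a septin, had 491 CPM in high cells and 358 CPM in low cells.

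Of 20 kinetochore and centromere genes compared, 18 were 2-fold or more higher, against 5.26% of all compared genes. CENPE, a kinesin of the kinetochore, had 374 CPM in high cells and 11.9 CPM in low cells, and HJURP, which loads the centromeric histone CENP-A, had 244 CPM in high cells and 10.8 CPM in low cells. Of 15 condensin and cohesin genes, 9 were 2-fold or more higher, against the same 5.26%. SMC4, the condensin ATPase, had 1259 CPM in high cells and 203 CPM in low cells, and its partner SMC2 had 288 CPM in high cells and 86.5 CPM in low cells. RAD21, the cohesin kleisin, had 770 CPM in high cells and 274 CPM in low cells. The cohesin subunit SMC3, unlike RAD21, stayed within 2-fold. It had 209 CPM in high cells and 123 CPM in low cells, STAG2 had 198 CPM in high cells and 179 CPM in low cells, and the loader NIPBL had 375 CPM in high cells and 290 CPM in low cells.

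Of 8 cell cycle transcription factors compared, 2 were 2-fold or more higher, against 5.26% of all compared genes: FOXM1, the activator of G2 genes, with 208 CPM in high cells and 37.8 CPM in low cells, and MYBL2, which encodes B-MYB, with 103 CPM in high cells and 38.9 CPM in low cells. TFDP1, the partner of E2F factors, had 125 CPM in high cells and 105 CPM in low cells.

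Chromatin proteins, tubulins and the nuclear envelope each held a few strongly different members. Their counts stand against 5.26% of all compared genes that were 2-fold or more higher. HMGB2, a DNA-bending protein, had 1054 CPM in high cells and 103 CPM in low cells (ratio 10.3, 95% interval 8.33 to 12.8), while its relative HMGA1 had 1984 CPM in high cells and 1784 CPM in low cells. Of 14 histone variants and HMG proteins, 4 passed 2-fold, among them H2AFZ, the variant H2A.Z, with 762 CPM in high cells and 343 CPM in low cells. Among 10 tubulin genes and stathmin, 4 passed 2-fold: TUBA1B with 1992 CPM in high cells and 736 CPM in low cells, TUBA1C with 1194 CPM in high cells and 426 CPM in low cells, TUBB4B with 844 CPM in high cells and 205 CPM in low cells, and STMN1, stathmin, with 802 CPM in high cells and 287 CPM in low cells. Tubulin and histone genes have near-identical relatives, so reads may be shared among them. Of 17 nuclear envelope genes 5 passed 2-fold, including TMPO, a lamina-associated protein, with 413 CPM in high cells and 89.7 CPM in low cells, whereas LMNA, the A-type lamin, had 453 CPM in high cells and 580 CPM in low cells.

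**Figure D3:**
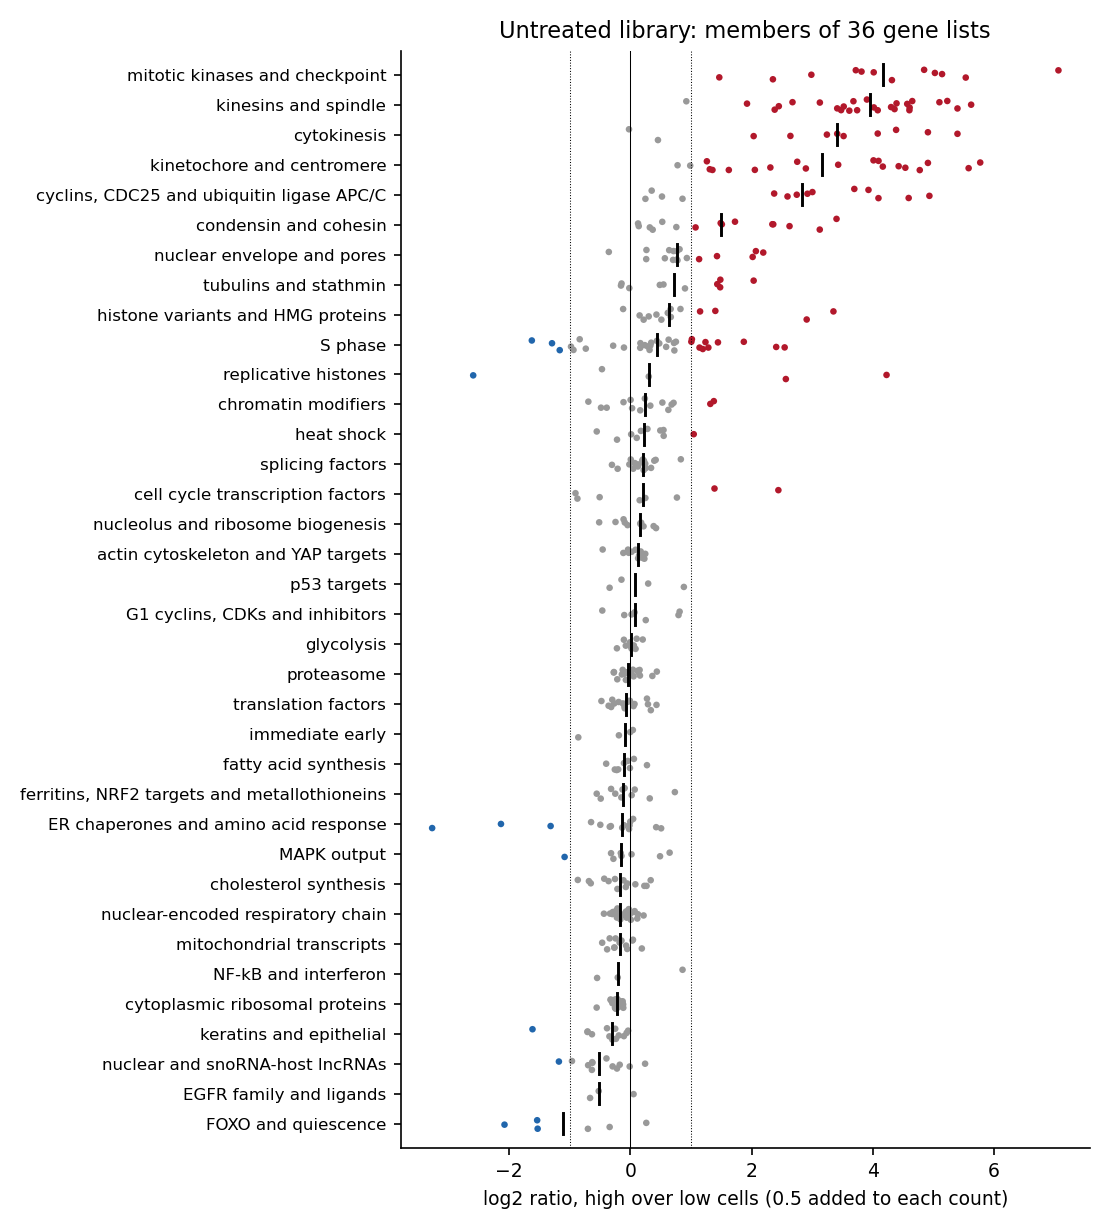
Log2 ratio of high over low untreated cells (horizontal axis) for each compared member of 36 gene lists (rows, sorted by median), with 0.5 added to each count. Red points are 2-fold or more higher, blue points 2-fold or more lower and grey points within; black bars are list medians, from 4.17 for mitotic kinases to -1.11 for FOXO and quiescence genes.

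S phase genes were highest in cells between the limits, so their direction depends on what high cells are set against: the pooled log2 ratio was 0.41 against low cells and -0.36 against all other kept cells. Summed over 60 genes with a row, S phase stood at 3722 CPM in low cells, 7949 CPM in cells between and 4947 CPM in high cells. Of 33 members compared, 10 were 2-fold or more higher in high cells and 3 were 2-fold or more lower. The shares over all compared genes were 5.26% and 1.51%. PCNA, the sliding clamp of DNA polymerase, had 235 CPM in low cells, 579 CPM in cells between and 293 CPM in high cells. TYMS, thymidylate synthase, had 114 CPM in low cells, 319 CPM in cells between and 251 CPM in high cells, and USP1, a deubiquitinase of DNA repair, had 169, 413 and 340 CPM in the same order. Of the 3 lower members, MCM6, a subunit of the replicative helicase, had 26.8 CPM in high cells and 83.3 CPM in low cells, its fellow subunit MCM5 had 36.5 CPM in high cells and 82.2 CPM in low cells, and UNG, the uracil-DNA glycosylase, had 21.9 CPM in high cells and 54.1 CPM in low cells. MSH6, a mismatch repair protein outside the list, had 36.5 CPM in high cells and 119 CPM in low cells. MCM5 and UNG, and the extremes at the other end, RRM2 with 152 CPM in high cells and 28.1 CPM in low cells and RAD51AP1 with 199 CPM in high cells and 33.5 CPM in low cells, were named after their values were seen.

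Replicative histones, whose transcripts mostly lack a poly(A) tail, had 14 genes with a row and 5 compared. Of the 5, 2 were 2-fold or more higher and 1 lower, against 5.26% and 1.51% of all compared genes. HIST1H4C, a histone H4 gene, had 421 CPM in low cells, 2323 CPM in cells between and 2494 CPM in high cells. HIST1H1D, a linker histone gene, had 2.16 CPM in low cells, 64.5 CPM in cells between and 50.3 CPM in high cells. HIST1H2AC, a histone H2A gene, was the lower one, with 8.11 CPM in high cells and 50.8 CPM in low cells. HIST1H2BK had 174 CPM in high cells and 241 CPM in low cells.

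High cells were split again at 1% to show the order within them. There were 162 cells at 0.5% to 1% and 85 cells at 1% or more, with medians of 2111.5 and 2522 UMIs. From low cells upward, S phase genes summed to 3722, 7949, 5453 and 4058 CPM over the 4 steps, and replicative histones to 846, 2883, 3448 and 2060 CPM. Kinesins and spindle genes summed to 906, 2325, 5534 and 9054 CPM over the same steps, and mitotic kinases to 225, 906, 1982 and 2936 CPM. Several spindle and kinetochore genes differed further within the high class: ASPM was 2.23-fold (95% interval 1.86 to 2.68) higher at 1% or more than at 0.5% to 1%, ARL6IP1 2.04-fold (1.82 to 2.30) and CENPE 2.03-fold (1.68 to 2.45). NDC80 differed less, at 1.18-fold (0.974 to 1.42), an interval that includes 1. S phase genes were lower in the last step, with PCNA at 192 CPM in cells at 1% or more and 350 CPM in cells at 0.5% to 1%, and HIST1H4C at 1754 CPM and 2916 CPM in the same order. ZWINT, a kinetochore protein, was the exception among the named kinetochore genes, with 168 CPM in cells at 1% or more and 230 CPM in cells at 0.5% to 1%. KDM5B was 2.14-fold (1.35 to 3.39) higher at 1% or more than at 0.5% to 1%, on 45 and 37 UMIs. MALAT1, a nuclear long noncoding RNA, was lowest in cells between the limits, with 6603, 4720, 5399 and 6639 CPM from low cells upward.

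**Figure D4:**
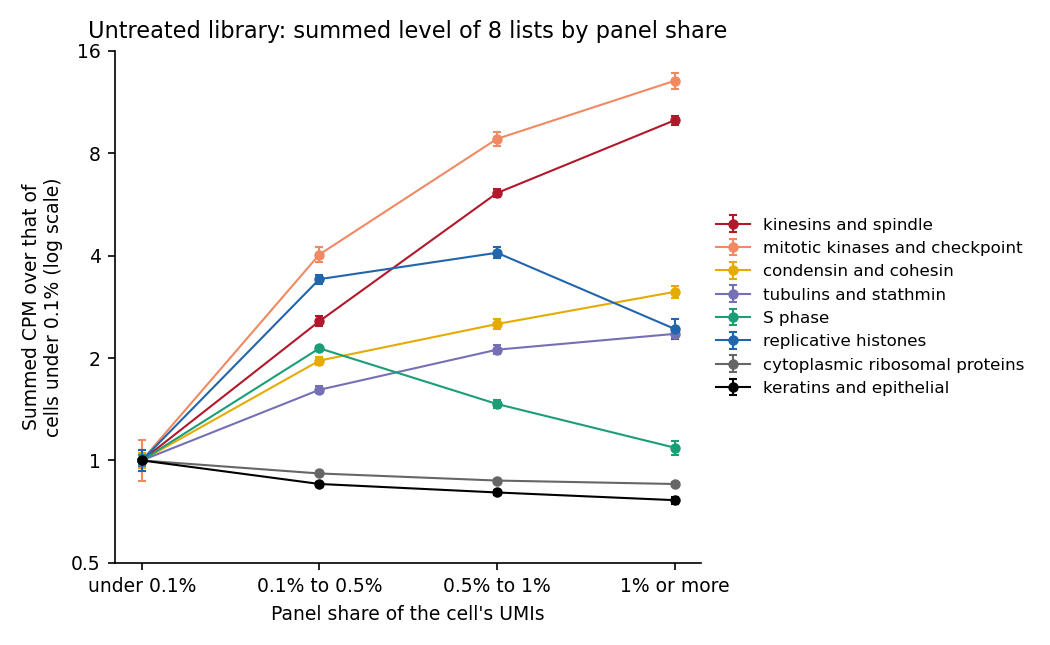
Summed level of 8 gene lists in the untreated library (vertical axis, log scale, CPM divided by that of cells under 0.1%) over 4 steps of the panel share (horizontal axis); bars are exact 95% Poisson intervals of the counts. Mitotic lists climb through all 4 steps, the S phase list peaks at 0.1% to 0.5%, replicative histones peak at 0.5% to 1%, and ribosomal proteins and keratins decline slightly.

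The genes lowest in high cells had smaller ratios than the highest genes, and most of them had fewer UMIs. DDIT3, which encodes the stress factor CHOP, had 8 UMIs (6.49 CPM) in high cells and 61 UMIs (66.0 CPM) in low cells, 10.2-fold lower (95% interval 4.85 to 24.6). Its 61 UMIs came from 25 low cells, and 1 cell gave 12 of them. With cells thinned to 1000 UMIs before classing, the log2 ratio of DDIT3 was -1.01 against -3.27, which lies outside the counting interval. FILIP1L, a regulator of cell migration, had 25.1 CPM in high cells and 132 CPM in low cells, and AGR2, a disulfide isomerase of secretory epithelium, had 98.9 CPM in high cells and 398 CPM in low cells. HERPUD1, a protein of endoplasmic reticulum-associated degradation, had 16.2 CPM in high cells and 72.4 CPM in low cells. PLAU, the urokinase protease, had 87.6 CPM in high cells and 271 CPM in low cells. SOX4, a transcription factor, had 141 CPM in high cells and 360 CPM in low cells, and TM4SF1, a membrane tetraspanin-like protein, had 131 CPM in high cells and 297 CPM in low cells. KRT17, a stress keratin, had 28.4 CPM in high cells and 87.6 CPM in low cells, but 37 of its 81 low-cell UMIs came from 1 cell, and without it the log2 ratio moved to -0.77 against -1.61. Of the 20 highest genes, 20 stayed past 2-fold in all 16 settings of cell choice and scaling, against 10 of the 20 lowest.

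Of 6 FOXO and quiescence genes compared, 3 were 2-fold or more lower in high cells and none was higher, against 1.51% of all compared genes lower. YPEL5, of the yippee family, had 14.6 CPM in high cells and 62.7 CPM in low cells, its relative YPEL3 had 31.6 CPM in high cells and 91.9 CPM in low cells, and GABARAPL1, an autophagy protein, had 20.3 CPM in high cells and 59.5 CPM in low cells. BTG1, an antiproliferative protein, had 130 CPM in high cells and 211 CPM in low cells. KLF6, a zinc finger factor of the same list, had 144 CPM in high cells and 120 CPM in low cells. Of 15 genes of endoplasmic reticulum chaperones and amino acid response, 3 were lower by 2-fold or more, against the same 1.51%: DDIT3, HERPUD1 and TRIB3. HERPUD1 was not lower in cells of 1500 to 4000 UMIs, where its log2 ratio was 0.24. TRIB3, a pseudokinase induced by stress that was named after its values were seen, had 38.9 CPM in high cells and 97.3 CPM in low cells. HSPA5, the main chaperone of the compartment, had 542 CPM in high cells and 850 CPM in low cells.

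Some abundant groups were shifted by less than 2-fold as a whole, with all or most members in 1 direction. Over all 4164 compared genes 2151 lay below 0. All 31 cytoplasmic ribosomal protein genes compared lay below 0, with a summed level of 61058 CPM in high cells and 70562 CPM in low cells (ratio 0.865, 95% interval 0.856 to 0.874). All 13 keratin and epithelial genes compared lay below 0 too, and 1 of them, KRT17, was 2-fold or more lower. S100A6, a calcium-binding protein, had 2890 CPM in high cells and 4719 CPM in low cells, and KRT19, a simple keratin, had 1425 CPM in high cells and 2210 CPM in low cells, while KRT7 had 2701 CPM in high cells and 2770 CPM in low cells. FTH1, the ferritin heavy chain, had 4320 CPM in high cells and 6346 CPM in low cells, with pseudogene copies that can share its reads. Mitochondrial transcripts summed to 30207 CPM in high cells and 35109 CPM in low cells, with 10 of 13 below 0 and 3 above. Heat shock genes stood on the other side, led by HSP90AA1, the inducible HSP90, with 10412 CPM in high cells and 7110 CPM in low cells. Of 10 heat shock genes compared, 8 lay above 0 and 2 below, and 1 was 2-fold or more higher. CPM are shares of a total, so a rise in one group lowers the others, and the panel and its fellow mitotic genes are part of that total.

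Genes that the series is about stayed within 2-fold between the classes, and of EGFR, KDM5A and KDM5B only the interval of KDM5B excludes 1. EGFR had 341 CPM in high cells and 329 CPM in low cells (ratio 1.04, 95% interval 0.894 to 1.21). KDM5A, a histone H3 lysine demethylase, had 118 CPM in both high cells and low cells (ratio 1.00, 95% interval 0.778 to 1.30), and its relative KDM5B had 66.5 CPM in high cells and 93.0 CPM in low cells (ratio 0.715, 95% interval 0.522 to 0.979). As given above, KDM5B was higher in cells at 1% or more than in cells at 0.5% to 1%. Its ratio for the whole high class therefore does not describe all high cells alike. CCND1, cyclin D1 of G1 phase, had 659 CPM in high cells and 650 CPM in low cells. Glycolysis genes summed to 12851 CPM in high cells and 12731 CPM in low cells, and the proteasome to 7795 CPM in high cells and 7966 CPM in low cells. No member of the G1 cyclin, p53 target, glycolysis or proteasome lists passed 2-fold among the 7, 4, 10 and 21 compared, where 5.26% and 1.51% of all compared genes did so in the higher and the lower direction, so that counts of 0 in lists of this size lie near the background.

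The same classes were then drawn in the scrambled shRNA library, which took no part in the choice of genes and held 37 high and 26 low cells of 222. There, 425 of 3960 genes with at least 10 UMIs were 2-fold or more higher in high cells (10.7%) and 198 were 2-fold or more lower (5%), on a far smaller count. Of the 219 genes higher in untreated high cells, 197 could be read in that library, 186 lay in the same direction and 128 were past 2-fold there, with 0 past 2-fold the other way. Of the 63 lower genes 37 could be read, 26 lay in the same direction, 15 were past 2-fold and 1 was past 2-fold the other way. PLK1 had 252 CPM in scrambled high cells and 14.3 CPM in scrambled low cells, and HMGB2 had 768 CPM in high cells and 143 CPM in low cells. TM4SF1, SOX4 and FNDC3B were not lower there, with log2 ratios of 0.98, 0.09 and 0.71. HIST1H4C stood at 285 CPM in scrambled high cells and 165 CPM in scrambled low cells, and over the whole list of replicative histones the pooled log2 ratio was -0.04 (95% interval -0.46 to 0.39) there and 1.80 in the untreated library. The untreated value is mostly HIST1H4C, which gave 3077 of the list's 3632 UMIs in untreated high cells, while the median log2 ratio of the 5 compared members was 0.30.

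**Figure D5:**
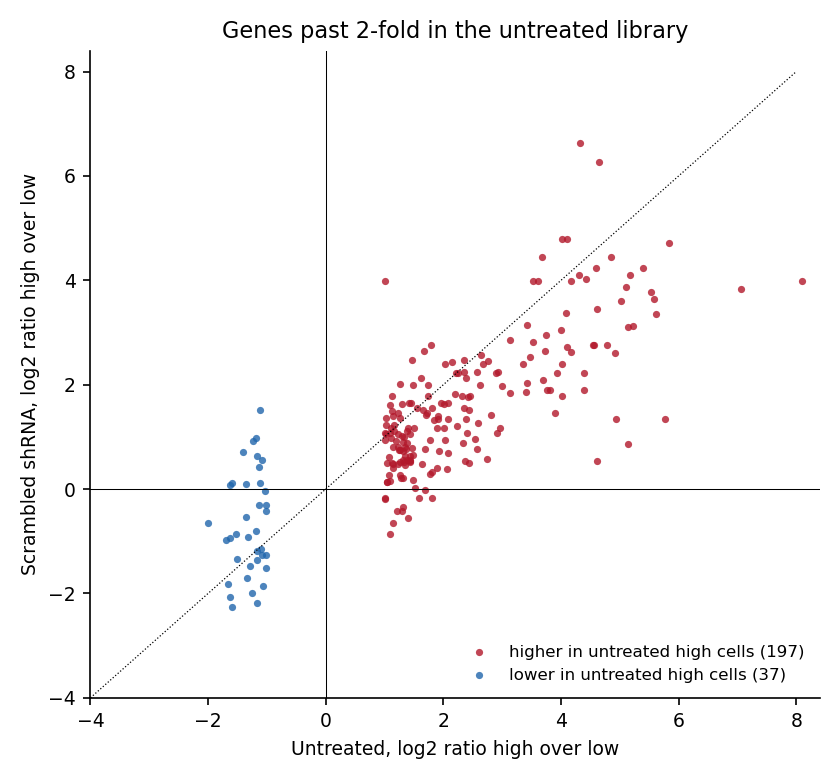
Log2 ratio of high over low cells in the untreated library (horizontal axis) and in the scrambled shRNA library (vertical axis) for genes past 2-fold in the untreated library with at least 10 UMIs in the scrambled one. Of 197 higher genes (red) 186 lie above 0 in the scrambled library, and of 37 lower genes (blue) 26 lie below 0; the dotted line marks equal ratios.

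A test across libraries was possible outside the untreated cells. Summed counts of high and low cells of the scrambled, CPI-455 and KDM5A and KDM5B shRNA libraries, with 37, 5 and 7 high cells and 26, 141 and 108 low cells, entered edgeR's quasi-likelihood test with the library as a block. Of 3209 genes, 65 (2.03%) rose and 31 (0.966%) fell in high cells at a Benjamini-Hochberg adjusted p under 0.05. Of the 219 genes higher in untreated high cells, 106 were tested, 105 had the same direction and 57 passed. Of the 63 lower genes 27 were tested, 24 had the same direction and 4 passed, among them FILIP1L, KRT17 and DIO2. Over all 3209 tested genes 1436 had a positive fold and 1773 a negative one. The count filter of the test could be met through 1 class alone, and genes that entered so had to differ. KIF14 entered with 37, 12 and 9 UMIs in high cells and 1, 0 and 0 in low cells, in the order of libraries above. These counts therefore describe the filter as well. The counts rest on few cells: without the KDM5A and KDM5B shRNA library 18 genes rose and 0 fell (189 genes at an unadjusted p under 0.05), without CPI-455 55 rose and 15 fell, and without the scrambled library 85 rose and 99 fell. The libraries differ in treatment, so the p-values measure spread between single libraries of different conditions.

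ASPM had the lowest adjusted p of all genes in these libraries. It stood at 274, 774 and 760 CPM in high cells of the scrambled, CPI-455 and KDM5A and KDM5B shRNA libraries, against 0, 6.88 and 4.78 CPM in their low cells (log2 fold 6.81, SE 0.49, edgeR adjusted p = 1.71e-10). PLK1 stood at 252, 285 and 190 CPM in high cells and at 14.3, 1.38 and 1.59 CPM in low cells (log2 fold 5.89, SE 0.71, edgeR adjusted p = 1.57e-06). HMGB2 stood at 768, 1385 and 868 CPM in high cells and at 143, 24.8 and 30.3 CPM in low cells (log2 fold 4.18, SE 0.47, edgeR adjusted p = 4.43e-05). In each of the 3 genes the summed level of the high cells of every library lay above the summed levels of the low cells of all 3 libraries. The low-cell levels rest on 0, 5 and 3 UMIs of ASPM and on 2, 1 and 1 UMIs of PLK1. All 3 genes still passed without any 1 of the libraries. HSP90AA1 rose by less (log2 fold 0.72, SE 0.17, edgeR adjusted p = 0.00878), with 12191, 6965 and 9713 CPM in high cells and 9614, 3497 and 4103 CPM in low cells. Its summed levels overlapped across libraries, while within each library that of high cells was above that of low cells. HSP90AA1 did not pass without CPI-455 or without the shRNA library.

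By list, 14 of 20 tested kinesin and spindle genes rose, 8 of 11 kinetochore genes, 7 of 11 mitotic kinases, 6 of 9 cytokinesis genes, 5 of 9 cyclins and ubiquitin ligase genes and 5 of 11 condensin and cohesin genes, against 2.03% of all tested genes. Members that entered the test through their high-cell UMIs alone had to differ, so these counts are partly set by the filter. None of the 14 tested S phase genes, 5 replicative histones or 3 transcription factors passed in either direction, counts near the 2.03% and 0.966% of all tested genes that did. For PCNA the log2 fold was -0.07 with an edgeR adjusted p of 0.989, and for HIST1H4C it was 0.74 with 0.428. Over the replicative histones as a list, the pooled log2 ratio was -0.71 in the CPI-455 and -0.94 in the KDM5A and KDM5B shRNA library, on 12 and 20 UMIs in high cells.

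Genes that fell in this test included epithelial ones. KRT17 stood at 5.37, 81.5 and 407 CPM in high cells of the 3 libraries in the same order, against 42.9, 270 and 2164 CPM in their low cells (log2 fold -2.53, SE 0.38, edgeR adjusted p = 4.04e-05). FILIP1L stood at 10.7, 0 and 163 CPM in high cells and at 42.9, 223 and 570 CPM in low cells (log2 fold -2.31, SE 0.51, edgeR adjusted p = 0.00541). Within each library the high cells were below the low cells for both genes, and across libraries the groups overlapped. The high-cell levels rest on 1, 2 and 15 UMIs of KRT17 and on 2, 0 and 6 UMIs of FILIP1L. The order in the scrambled and CPI-455 libraries therefore rests on fewer than 3 high-cell UMIs per gene. In the CPI-455 library the counting interval of the log2 ratio was -4.78 to 0.14 for KRT17, which includes 0. For FILIP1L that interval lay below 0, with an upper end of -0.55. Without the shRNA library the edgeR adjusted p was 0.523 for KRT17, and FILIP1L was not tested. Of 14 keratin and epithelial genes tested 7 fell and none rose, against 0.966% of all tested genes. S100A6 (log2 fold -0.90, SE 0.18, edgeR adjusted p = 0.00136), KRT19 (-0.97, SE 0.19, 0.00161) and FTH1 (-0.95, SE 0.16, 0.000261) were among the genes that fell, and none of the 3 passed without the shRNA library, nor KRT19 without CPI-455. Of 31 ribosomal protein genes, 31 had a negative fold, against 1773 of all 3209 tested genes. Of the 31, 2 passed, RPLP0 and RPL15, which like DIO2 were named after their values were seen. All 6 FOXO and quiescence genes tested had a negative fold too, against the same 1773 of 3209, with a median log2 of -0.74. None of the 6 passed, where 0.966% of all tested genes fell: YPEL5 had an adjusted p of 0.565 and YPEL3 of 0.786 in the edgeR test. KDM5A (log2 fold 0.33, SE 0.53, edgeR adjusted p = 0.892), KDM5B (-0.15, SE 0.49, 0.959) and EGFR (-0.11, SE 0.30, 0.944) did not pass.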

How the data were processed

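The authors deposited counts per gene symbol and cell barcode, whole numbers of UMIs with no normalization, as the values show. STAR and FastQC with build GRCh37.p13 (hg19) are named per the submitters' processing notes, and the counting tool is not given in the sources used here. The untreated table held 2500 barcodes and 21982 genes. Cells were filtered and classed as stated in the report, no doublet caller was used, and UMIs were summed per class. CPM scale each class to the same total. Intervals of a ratio are exact conditional intervals of 2 Poisson counts at 95%. Log2 ratios carry 0.5 added to each count. A count of 0 is set against a floor of 3 counts (2.43 CPM in high cells, 3.24 CPM in low cells). Intervals and floors cover counting error and not the spread between cells.

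The test used edgeR 4.0.16 in R 4.3.3 (TMM, filterByExpr, robust quasi-likelihood, library as block, residual degrees of freedom 2, common biological coefficient of variation 0.195). It was tested on simulated data. limma 3.58.1 and DESeq2 1.42.0 were alternatives. Python 3.11.15 with scipy 1.17.1 was used elsewhere.

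Named genes are the panel, the 20 with the highest lower bound and the 20 with the lowest upper bound of the ratio at 50 CPM or more in either class, up to 6 members with most UMIs of each list, KDM5A, KDM5B and EGFR. Of 713 list genes, those without a row in the table are not analysed here, and 1 gene of the 20 lowest is not reported here. The members, the lists and the settings were chosen with earlier results of these data known. The replicate numbers in the labels pair no libraries.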

Additional observations from a re-analysis of the deposited data

Results flagged for a closer look

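In 4 of 36 gene lists, the contrast of high over low cells ran one way in both libraries without erlotinib and the other way in both libraries with it that had enough cells. Of 40 single genes, 13 had at least 10 UMIs in each of the 4 libraries, and 0 of those did so. The rest could not be read this way. The difference was not tested, and the libraries with erlotinib held 5 and 7 high cells. A rule on signs alone can also be met by ratios that scatter around 0, so the count of lists shows no effect of erlotinib. ER chaperones and amino acid response genes had log2 ratios of 0.14 (95% interval -0.12 to 0.39) in the CPI-455 library and 0.26 (0.074 to 0.43) in the KDM5A and KDM5B shRNA library, against -0.20 in the untreated and -0.41 in the scrambled library. For the other 3 lists the intervals in both libraries with erlotinib include 0, so their signs there are not set. EGFR family and ligands had 0.11 in the CPI-455 library and 0.37 in the KDM5A and KDM5B shRNA library, on 12 and 21 UMIs in high cells, against -0.23 in the untreated and -0.038 (-0.50 to 0.44) in the scrambled library. G1 cyclins, CDKs and inhibitors had -0.065 in the CPI-455 library and -0.18 in the KDM5A and KDM5B shRNA library, on 21 and 26 UMIs in high cells, against 0.14 in the untreated and 0.21 (-0.062 to 0.48) in the scrambled library. The proteasome had 0.093 in the CPI-455 library and 0.12 in the KDM5A and KDM5B shRNA library, against -0.031 (-0.075 to 0.013) in the untreated and -0.050 (-0.15 to 0.054) in the scrambled library.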

How the results depend on the processing

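In the untreated library the count of genes past 2-fold moved with the minimum level and the choice of cells. Against 219 higher and 63 lower, a minimum of 20 CPM gave 434 and 240, one of 100 CPM gave 127 and 17, and no minimum gave 3689 and 3573. Thinning cells to 1000 UMIs gave 351 and 233, and thinning before classing too gave 352 and 238. Cells of 1500 to 4000 UMIs gave 395 and 333. High cells at 1% or more against low cells without panel UMIs gave 377 and 276. High cells against all other kept cells gave 113 and 27. Equal weight per cell gave 120 lower. Smaller totals admit genes with few UMIs, since a minimum in CPM is then fewer counts. Of 1135 values of 73 genes past 2-fold, 947 moved by less than their counting interval, 187 moved by more and 1 changed sign: HERPUD1 had a log2 ratio of 0.24 in cells of 1500 to 4000 UMIs. Leaving out the cell with most UMIs of a gene, as given for KRT17, was chosen after seeing the data. Of 540 list values, 384 moved by less and 156 by more. Of these, 16 values of 7 lists had the other sign, all of lists within 2-fold: S phase had -0.36 against 0.41 when high cells were set against all other kept cells, and the others were among G1 cyclins, p53 targets, glycolysis, MAPK output, proteasome and cholesterol synthesis.

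In the test over other libraries, 65 genes rose and 31 fell. DESeq2 called 11 lower, limma-voom 53 lower, and the fit with no replicate block 0 lower (271 genes at an unadjusted p under 0.05). Adding the untreated library, which chose the genes, gave 195 and 154. Cells thinned to 1000 UMIs gave 0 and 0 by edgeR among 492 genes tested, with 50 at an unadjusted p under 0.05. Leaving out 1 library gave between 18 and 85 higher and between 0 and 99 lower. Of the 65 rising genes DESeq2 also called 62 and limma-voom 64. With 5 and 7 high cells in the libraries with erlotinib, depth limits which low-level genes could be tested there.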
